A study of Mus musculus with 18 samples.

Results

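Immunoglobulin segments are the gene pieces from which a B cell builds its antibody chains. The segments described here were chosen from the arrays themselves. A transcript cluster, the unit an array reports, was kept if its annotation named exactly 1 symbol of a heavy chain variable (V), diversity (D) or joining (J) segment, of a kappa or lambda V, J or constant (C) segment, or of a heavy chain constant region, and if its mean log2 value exceeded 5 in at least 1 of the 6 groups. Of 208 immunoglobulin symbols, each with a single cluster, 65 passed, against 15294 of 30638 clusters with 1 symbol on the arrays. The levels below are therefore a description of what the rule selected and carry no test.

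The cells were M12-5B3, a p53-deficient mouse B lymphoma line with features of the germinal centre. According to the paper, the line carries inducible RAG1 and GFP-RAG2 transgenes, which encode the recombinase that joins antibody gene segments. The paper reports that tetracycline was kept in the cultures so that these transgenes stayed silent. One derivative carried a scrambled short hairpin RNA (sshRNA) and the other carried hairpins against both Usf1 and Usf2 (USFKD), which encode the E-box binding transcription factors USF1 and USF2. Each derivative was profiled without irradiation (no IR) and 1 day and 7 days after 5 Gy of ionizing radiation (1d IR and 7d IR), with 3 arrays per group and 18 in all. Both derivatives were selected with puromycin and isolated as clones, so the knockdown cannot be told apart from the difference between clones. One untreated group per line served both times, so radiation cannot be told apart from time in culture.

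Antibody chains are assembled in developing B cells by cutting and joining 1 V, 1 J and, for the heavy chain, 1 D segment out of many. The joined segment is then transcribed from the promoter of its V segment, under enhancers in the J to C introns and beyond the C genes. A mature B cell clone therefore makes transcripts from essentially 1 productive heavy chain and 1 productive light chain rearrangement, while unrearranged V segments are largely silent. Class switching replaces the mu constant region by a gamma, epsilon or alpha constant region, and germinal centre B cells are where much of this occurs.

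On the arrays, Usf2 differed between the untreated lines by -2.15 ± 0.16 (SE, log2) at its more strongly changed cluster, USFKD being lower (limma, adjusted p = 6.35e-07), and Usf1 by -0.07 ± 0.08. Usf1 had group means from 5.16 to 5.28, little above the threshold of 5. At that level its small difference cannot decide whether Usf1 RNA was lowered. By Western blot, the paper reports that both USF1 and USF2 protein were reduced in USFKD. The 6 B cell markers measured singly had group means from 9.27 to 14.9. The 5 T cell markers stayed between 3.57 and 4.93 with no 18-array mean above 4.67, which is taken here as the limit below which a cluster is dim and is the level that 95% of 1720 odorant and vomeronasal receptor clusters do not exceed. Of 7 plasma cell markers 6 exceeded that limit, and group means over their list ran from 4.18 to 15.4. Of 6 macrophage markers only Adgre1 exceeded that limit, at 4.5 to 4.65 in the sshRNA groups and 6.78 to 7.09 in the USFKD groups. The summed level of that list was 24.9 to 25.8 in sshRNA and 27.0 to 27.6 in USFKD. The 6 arrays of the 7-day groups stood apart by their hybridisation spikes, at 11.4 to 11.8 against 10.6 to 11.1 on the other 12. The part of the Adgre1 difference or of the spike shift in the results below was not tested, and the spike shift cannot be told apart from time.

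The 65 comprised 3 of 4 heavy chain constant regions (Ighg1, Ighg2b and Ighe), 39 of 113 heavy V segments, 22 of 86 kappa V segments and the single kappa J segment with a cluster of its own, Igkj3. None of 4 heavy D symbols passed, their 18-array means being 2.64 to 2.98, and all 4 were annotated as D segment pseudogenes. The mu constant region gene Ighm, whose product forms IgM, was also below the threshold, with group means from 3.76 to 4.09. Segments of the lambda locus, the kappa constant region, heavy J segments and heavy chain constant regions other than these 4 had no cluster with 1 symbol. They were not analysed here by name.

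Most of the 65 lay close to the threshold. The highest group mean exceeded 6 in 24 of them, 8 in 6 and 13 in 4, and 42 were above 5 in all 6 groups while 8 were above it in 1 group only. Just inside the threshold were Igkv19-93, with a highest group mean of 5.00, and Ighv1-84 with 5.02. Just outside were Igkv18-36 and Ighv14-1, each with 4.99. The 18-array mean was above 5 in 51 of the 65, and tests are read below for those. The other 14 had group means between 4.44 and 5.27. The RefSeq table of assembly GRCm38.p6 annotated 56 of the 65 as V segments, 5 as V segment pseudogenes, 3 as C regions and 1 as a J segment. The pseudogenes were Ighv1-2 (18-array mean 6.20), Ighv2-1 (5.51), Igkv4-56 (5.10), Igkv17-134 (5.08) and Igkv12-47 (4.83).

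**Figure D1:**
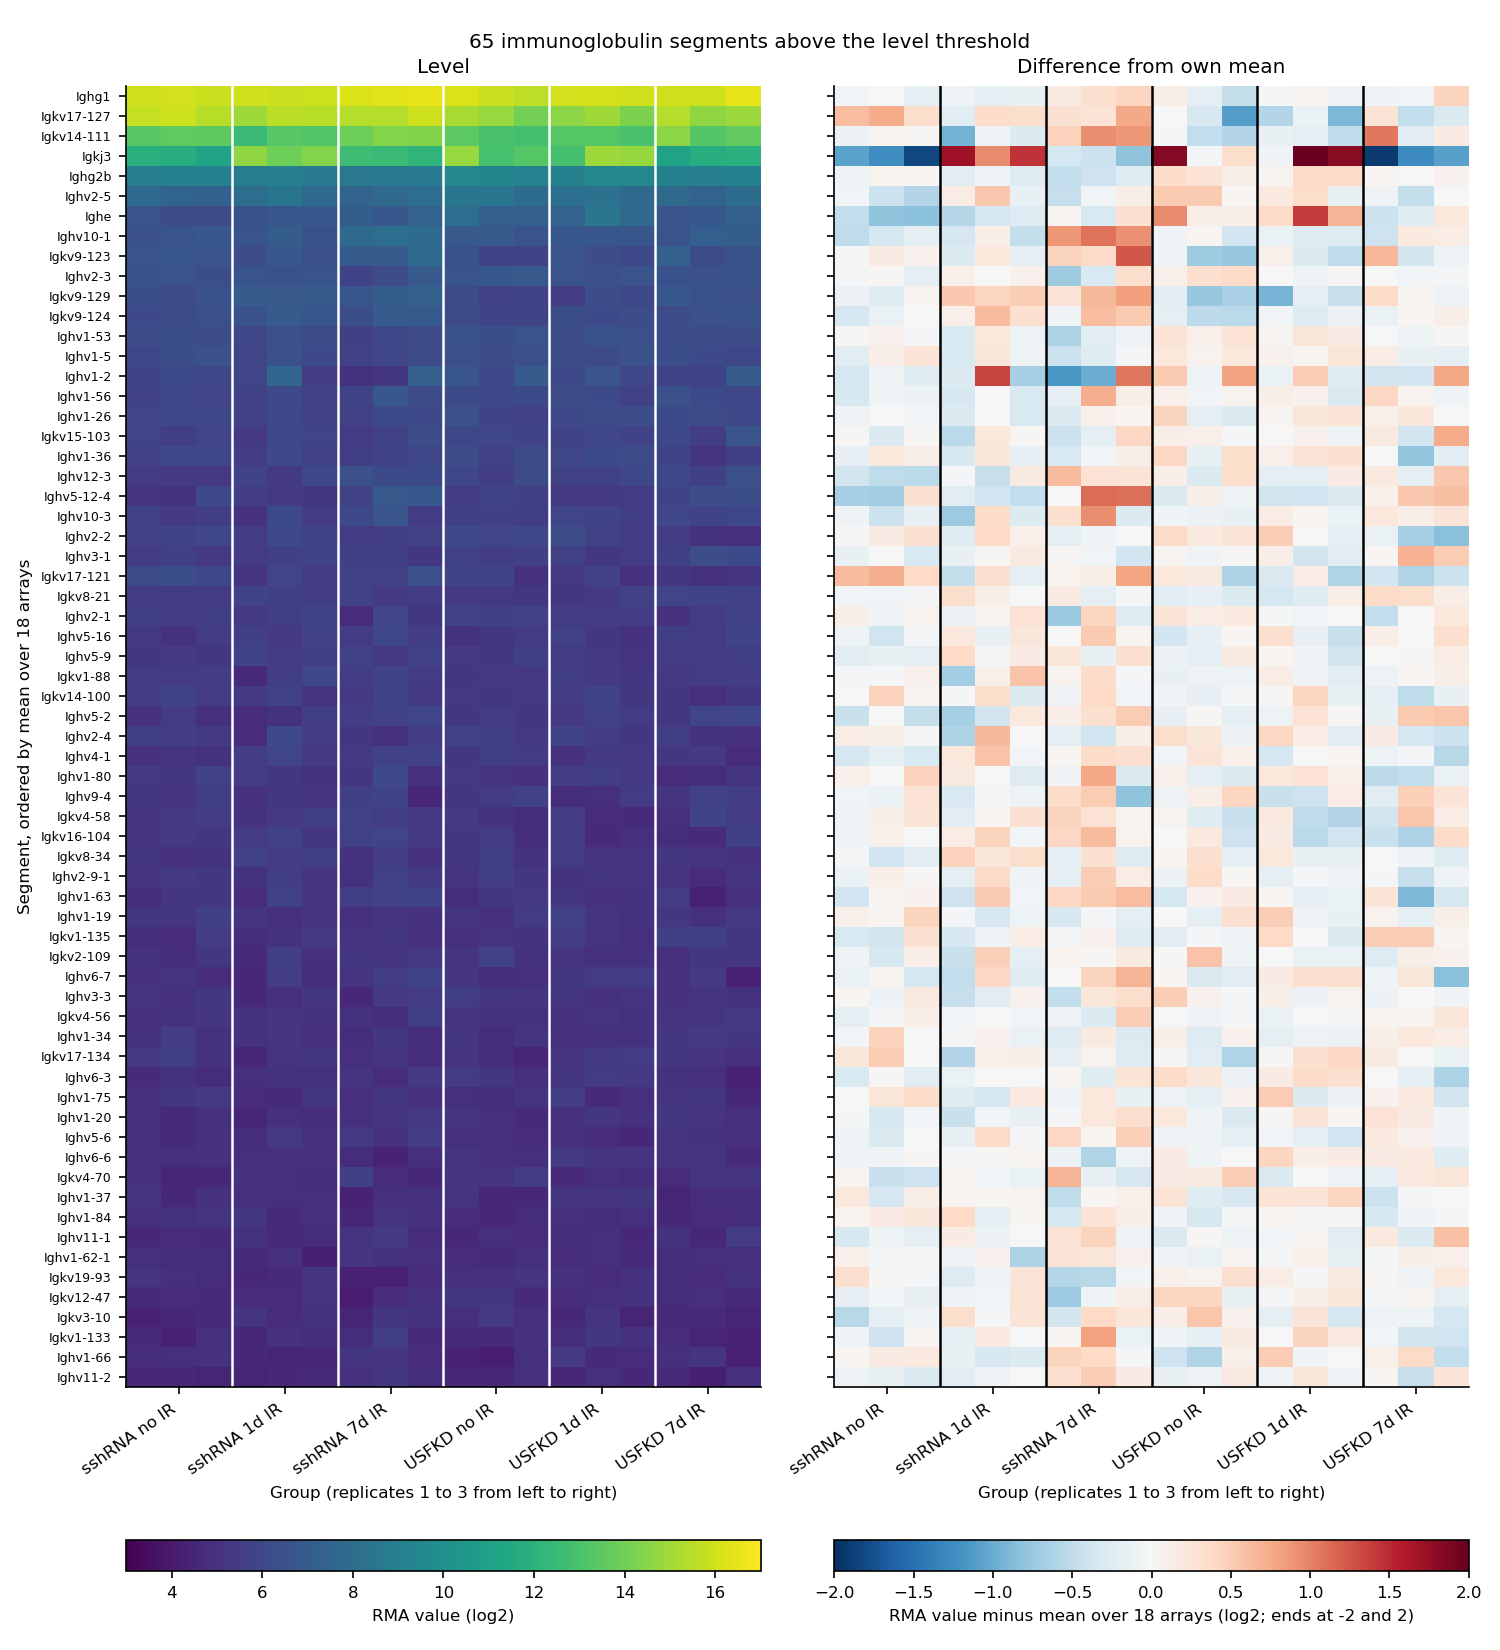
The left panel shows the deposited log2 value of each of the 65 segments (rows, ordered by mean) on each of the 18 arrays (columns, 3 per group), and the right panel shows the same values minus the mean of each row. The colour scale on the right ends at -2 and 2. Ighg1, Igkv17-127, Igkv14-111 and Igkj3 stand at the top on the left, and Igkj3 has the widest range of group means on the right.

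The strongest signals came from a few segments. Ighg1, the constant region of IgG1, had an 18-array mean of 16.1, Igkv17-127 of 15.2, Igkv14-111 of 13.5 and Igkj3 of 12.97. Ighg2b followed with 9.09, Ighv2-5 with 7.92, Ighe with 7.09 and Ighv10-1 with 6.98. Probe sets differ in how brightly they respond to the same amount of RNA, so these values do not rank the segments by transcript abundance.

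Membership was not spread evenly over the loci. In the order of the RefSeq table along chromosome 6, the first 43 kappa V symbols, from Igkv2-137 to Igkv4-63, held 16 of the segments above threshold and the last 43 held 6. Among symbols with a cluster of their own, the highest kappa V levels were those of Igkv17-127, Igkv14-111, Igkv9-123, Igkv9-129 and Igkv9-124. These all lay in the first part of the order, which is the end far from the J segments. Clusters with several symbols have no place in this order. Along chromosome 12, the first 56 heavy V symbols, from Ighv2-1 to Ighv1-18, held 25 and the remaining 57 held 14. By the family number in the symbol, all 3 symbols of each of the kappa families 9 and 17 passed, as did 6 of 8 of heavy family 2. Of the largest families, 16 of 61 symbols of heavy family 1 and 3 of 25 of kappa family 4 passed, and 0 of 8 of heavy family 8. Families share sequence, so their members are not independent observations.

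**Figure D2:**
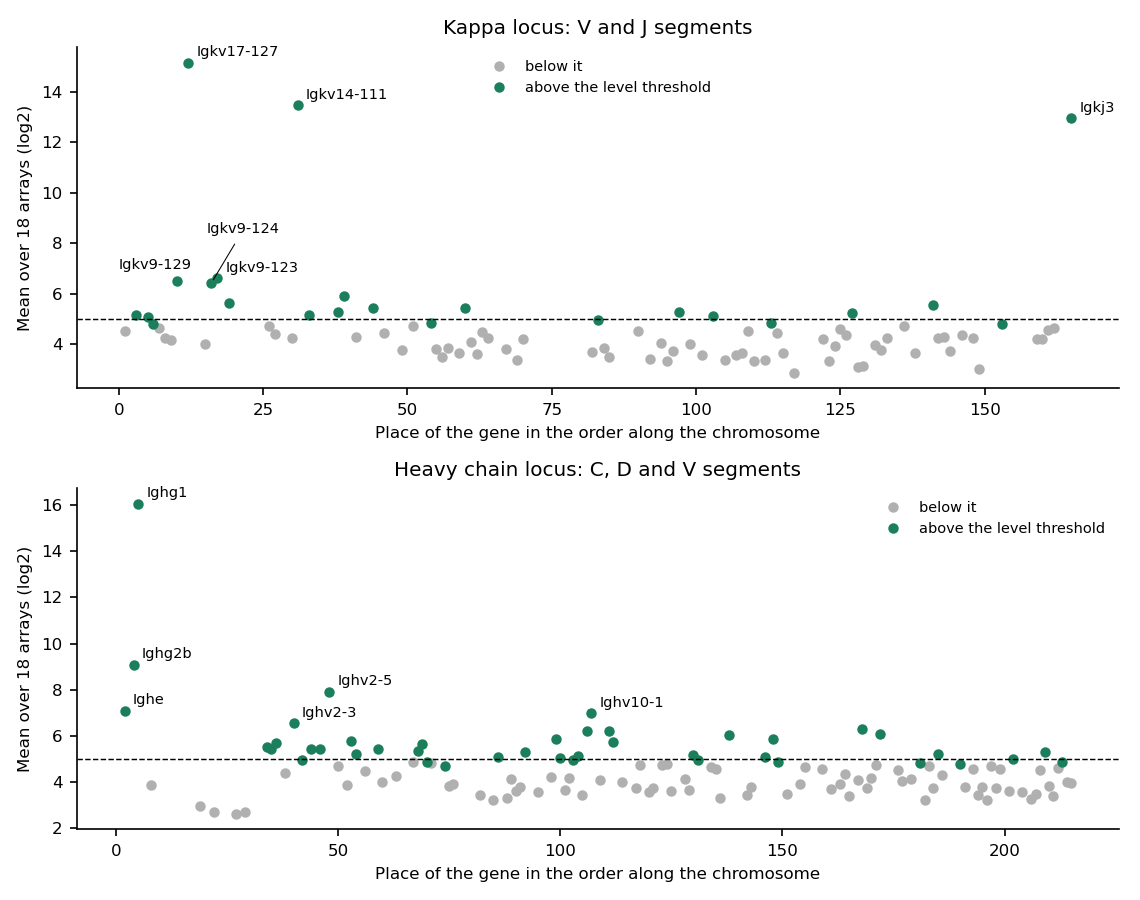
The 18-array mean log2 value (y axis) is plotted against the place of each gene in the RefSeq order along the chromosome (x axis), for the kappa locus (above) and the heavy chain locus (below). Green points passed the threshold and grey points did not, the dashed line marks a value of 5, and symbols with a mean above 6.4 are named. Igkv17-127 at 15.2 and Igkv14-111 at 13.5 stand far above the V symbols plotted beside them. Clusters with several symbols are not plotted, and on chromosome 6 these include clusters with 18-array means of 12.7 and 14.1.

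Among the constant regions, Ighg1 passed in no comparison, with group means from 15.9 to 16.4. Its values were 16.004, 16.06 and 15.88 in sshRNA no IR, and 16.18, 15.88 and 15.59 in USFKD no IR. At 1 day they were 15.98, 15.88 and 15.92 in sshRNA and 16.02, 16.11 and 15.97 in USFKD. At 7 days they were 16.24, 16.38 and 16.50 in sshRNA and 15.997, 16.01 and 16.50 in USFKD. The arrays of both lines overlapped at each time, and the largest change was +0.39 ± 0.15 (SE) from sshRNA no IR to 7d IR (adjusted p = 0.0528). Values near 16 are close to the top of the scale of a 16-bit scanner, and 1339 rows of the data hold a value above 16. A change at that level may therefore be understated. The same limit applies below to Igkv17-127, Hsp90b1 and Pou2af1, with untreated sshRNA means of 15.7, 16.3 and 16.7.

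Ighg2b, the constant region of IgG2b, was slightly higher in USFKD at each time. The untreated sshRNA arrays gave 9.01, 9.16 and 9.13, and the untreated USFKD arrays 9.46, 9.36 and 9.21. One day after irradiation the values were 8.87, 8.997 and 8.83 against 9.15, 9.47 and 9.45, and after 7 days 8.61, 8.67 and 8.83 against 9.14, 9.10 and 9.17. The lines did not overlap at any of the 3 times. The difference was 0.24 ± 0.10 without irradiation (adjusted p = 0.207), 0.46 ± 0.10 at 1 day (adjusted p = 0.0117) and 0.43 ± 0.10 at 7 days (adjusted p = 0.0100). The corresponding folds of 1.37 and 1.35 are under the 1.5 that the call requires in addition to an adjusted p under 0.05, so none of these counts as called.

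Ighe, the constant region of IgE, was higher in USFKD before irradiation and 1 day after it. In sshRNA no IR the arrays read 6.59, 6.29 and 6.27, and in USFKD no IR 8.04, 7.22 and 7.23. At 1 day the values were 6.51, 6.75 and 6.84 in sshRNA and 7.48, 8.49 and 7.77 in USFKD. All USFKD arrays lay above all sshRNA arrays at both times, with differences of 1.11 ± 0.27 (2.16-fold, adjusted p = 0.0183) and 1.21 ± 0.27 (2.31-fold, adjusted p = 0.0128). At 7 days the lines overlapped, with 7.15, 6.78 and 7.39 in sshRNA and 6.67, 6.84 and 7.31 in USFKD, a difference of -0.17 ± 0.27 (adjusted p = 0.758). The step between no IR and 7d IR differed between lines by -1.28 ± 0.38, and this difference in response did not pass (adjusted p = 0.0969). The untreated call was lost without sshRNA no IR replicate 2 (adjusted p = 0.0740), without replicate 3 (0.0745) or without USFKD no IR replicate 1 (0.1003). The 1-day call was lost without sshRNA 1d IR replicate 1 (0.0598) or USFKD 1d IR replicate 2 (0.0635).

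**Figure D3:**
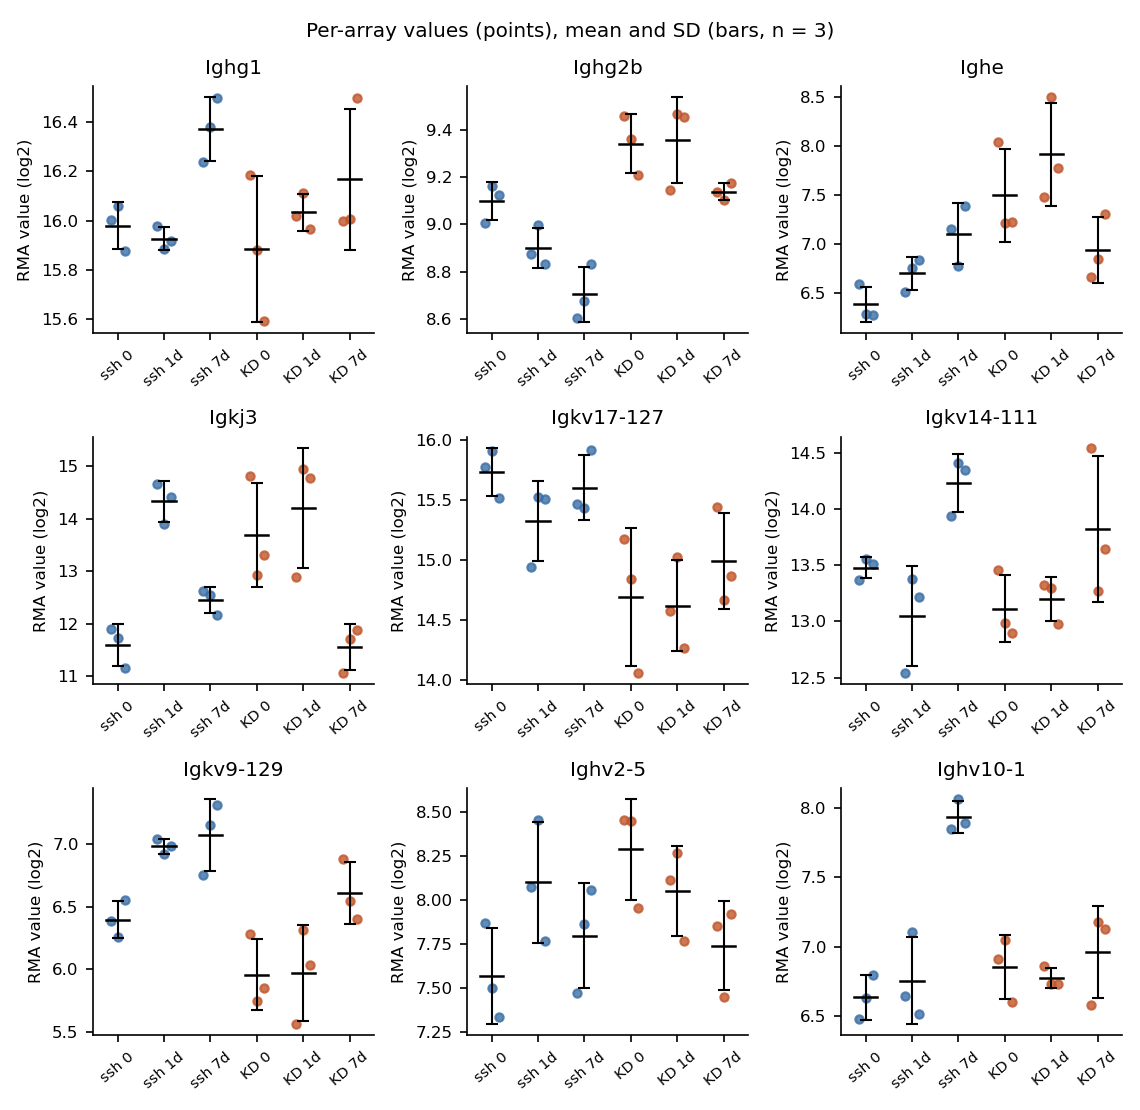
Each panel shows the deposited log2 values (y axis, its range set per panel and not starting at 0) of 1 segment on the arrays of each group, with points for arrays and bars for the mean and SD of 3. The labels ssh and KD stand for sshRNA and USFKD, and 0, 1d and 7d for no IR, 1d IR and 7d IR. Ighe is higher in USFKD at no IR and 1d IR, Igkj3 is lowest in sshRNA no IR and USFKD 7d IR, and Ighv10-1 stands alone in sshRNA 7d IR.

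Igkj3 is 1 of the short kappa joining segments between the V segments and the kappa constant region, and in the mouse it is regarded as non-functional. The kappa rearrangement by which the paper verified the line uses another joining segment, Jκ5. Which transcripts give the Igkj3 signal was not tested. The group means of Igkj3 spanned 2.78, the widest range of the 65. The sshRNA no IR arrays read 11.91, 11.73 and 11.15, and the USFKD no IR arrays 14.81, 12.93 and 13.32. USFKD was higher on all 3, by 2.09 ± 0.51 (4.27-fold, adjusted p = 0.0191). At 1 day the values were 14.67, 13.91 and 14.42 in sshRNA and 12.90, 14.95 and 14.77 in USFKD, and the lines overlapped (difference -0.13 ± 0.51, adjusted p = 0.971). At 7 days they were 12.63, 12.54 and 12.16 in sshRNA and 11.06, 11.71 and 11.89 in USFKD. Those arrays did not overlap, but the difference of -0.89 ± 0.51 did not pass (adjusted p = 0.308).

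Within lines, Igkj3 rose in sshRNA from no IR to 1d IR by 2.74 ± 0.51 (6.67-fold, adjusted p = 0.0111), with all 1d IR arrays above all untreated ones. In USFKD the same step was 0.52 ± 0.51 with overlapping arrays (adjusted p = 0.847). The difference between these responses, -2.22 ± 0.72, did not pass (adjusted p = 0.654). From no IR to 7d IR, Igkj3 dropped by 2.14 ± 0.51 on the log2 scale in USFKD (adjusted p = 0.00914) and changed by 0.85 ± 0.51 in sshRNA (adjusted p = 0.213). That difference in response was -2.98 ± 0.72 (adjusted p = 0.0445), but it was lost in 15 of the 18 fits that left out 1 array, at adjusted p from 0.0509 to 0.0985. The rise in sshRNA at 1 day was lost without sshRNA no IR replicate 3 (adjusted p = 0.0543) or sshRNA 1d IR replicate 1 (0.0690). The untreated difference was lost without sshRNA no IR replicate 2 (0.0540) or 3 (0.0914) or USFKD no IR replicate 1 (0.101). The SD within USFKD groups was 0.99 without irradiation and 1.14 at 1 day, against 0.40 and 0.39 in sshRNA.

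Of the kappa V segments, Igkv17-127 was lower in USFKD than in sshRNA. Values without irradiation were 15.77, 15.91 and 15.52 in sshRNA and 15.17, 14.84 and 14.06 in USFKD, which did not overlap, and the difference was -1.04 ± 0.28 (2.06-fold, adjusted p = 0.0370). At 1 day they were 14.94, 15.53 and 15.51 against 14.57, 15.02 and 14.26, and at 7 days 15.47, 15.43 and 15.92 against 15.44, 14.67 and 14.87. The arrays overlapped at both later times, with differences of -0.71 ± 0.28 (adjusted p = 0.234) and -0.61 ± 0.28 (adjusted p = 0.200). The untreated call did not hold without any 1 of the 3 sshRNA no IR arrays or without USFKD no IR replicate 2 or 3, at adjusted p from 0.0602 to 0.175. It was also lost with only the arrays compared in the fit (0.0848).

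Igkv14-111, the other kappa V segment with values above 12 on every array, passed in no comparison. Untreated sshRNA arrays gave 13.37, 13.56 and 13.51, and untreated USFKD arrays 13.45, 12.99 and 12.90. One day after irradiation sshRNA gave 12.54, 13.38 and 13.22, and USFKD 13.33, 13.29 and 12.98. After 7 days sshRNA gave 13.94, 14.41 and 14.35, and USFKD 14.54, 13.27 and 13.65. The sshRNA 7d IR arrays lay above all untreated sshRNA arrays, and the change of 0.75 ± 0.28 was at the threshold (adjusted p = 0.0501).

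Igkv9-129 differed between lines at 1 day and rose in both by 7 days. The values at 1 day were 7.04, 6.92 and 6.99 in sshRNA and 5.56, 6.32 and 6.03 in USFKD, a difference of -1.01 ± 0.20 (2.02-fold, adjusted p = 0.00490) that was called in all 18 fits without 1 array. Without irradiation sshRNA had 6.39, 6.26 and 6.55 and USFKD 6.28, 5.74 and 5.85, and 7-day arrays 6.76, 7.15 and 7.31 in sshRNA and 6.88, 6.55 and 6.402 in USFKD. The lines overlapped at both of those times. From no IR to 7d IR the segment rose by 0.68 ± 0.20 in sshRNA (adjusted p = 0.0168) and by 0.65 ± 0.20 in USFKD (adjusted p = 0.0330), comparisons that share no array. With each array centred on its bright clusters these became 0.51 (adjusted p = 0.101) and 0.46 (0.155), and both calls were lost. The call in sshRNA was also lost without sshRNA no IR replicate 2 (0.0658) or sshRNA 7d IR replicate 2 (0.0518) or 3 (0.0679), and the call in USFKD without USFKD no IR replicate 2 (0.129) or 3 (0.101) or USFKD 7d IR replicate 1 (0.111) or 2 (0.0600). Igkv9-123, a neighbour of the same family, had group means from 6.09 to 7.29 and passed in no comparison.

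Among heavy V segments, Ighv10-1 was raised in sshRNA 7d IR. The sshRNA arrays read 6.47, 6.63 and 6.79 without irradiation, 6.64, 7.11 and 6.51 at 1 day and 7.85, 8.07 and 7.89 at 7 days. The USFKD arrays read 6.91, 7.04 and 6.60, then 6.86, 6.73 and 6.73, then 6.57, 7.17 and 7.13. The 3 arrays of sshRNA 7d IR lay above all 15 others. The 7-day change in sshRNA against no IR was 1.30 ± 0.18 (2.47-fold, adjusted p = 5.64e-05), and in USFKD 0.11 ± 0.18 (adjusted p = 0.733). USFKD 7d IR was lower than sshRNA 7d IR, with a difference of -0.98 ± 0.18 (adjusted p = 0.00193). The difference in response was -1.20 ± 0.25 (adjusted p = 0.0223). The 7-day change in sshRNA and the 7-day difference between lines were called in all 18 fits without 1 array and under all 8 other settings. The difference in response was lost without sshRNA no IR replicate 1 (0.0596) or 2 (0.0592), USFKD no IR replicate 2 (0.0548) or sshRNA 7d IR replicate 2 (0.0543).

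Another 3 heavy V segments moved by 7 days without overlap. Ighv12-3 rose in sshRNA from 5.5, 5.35 and 5.33 to 6.50, 6.15 and 6.12, a change of 0.86 ± 0.21 (adjusted p = 0.00561) that was called in all 18 fits without 1 array. Ighv5-2 rose in sshRNA from 4.97, 5.42 and 4.94 to 5.54, 5.75 and 5.92, a change of 0.63 ± 0.22 (adjusted p = 0.0425). That call was lost in 9 of the 18 fits without 1 array (adjusted p up to 0.126) and with centring on bright clusters (0.206). Ighv2-2 fell in USFKD from 6.07, 5.90 and 5.96 to 5.57, 5.04 and 4.86, a change of -0.82 ± 0.20 (adjusted p = 0.00968), and lost its call only without USFKD 7d IR replicate 3 (0.0521). Ighv5-12-4, named after its values were seen, was called in sshRNA at 7 days (1.09 ± 0.29, adjusted p = 0.00920) although its arrays overlapped, at 5.10, 5.07 and 6.07 without irradiation and 5.77, 6.89 and 6.86 at 7 days.

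The other heavy V segments with high levels passed in no comparison. Ighv2-5 had group means from 7.57 to 8.29, and its untreated arrays did not overlap between lines, at 7.87, 7.50 and 7.34 in sshRNA and 8.45, 8.45 and 7.96 in USFKD, but the difference of 0.72 ± 0.22 did not pass (adjusted p = 0.0644). Ighv2-3 had group means from 6.32 to 6.82 and Ighv1-53 from 5.97 to 6.50. Ighv1-53 and Ighv1-5 differed by at most 0.30 on any array. Another 2 pairs outside the 65, Ighv1-62-2 with Ighv1-71 and Ighd5-7 with Ighd6-1, hold identical values on all 18 arrays. Probes of near-identical V segments can share transcripts, so the value of a single V segment is uncertain to an extent that was not tested.

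Counted over all 208 immunoglobulin symbols, calls were few. USFKD no IR against sshRNA no IR gave 3 calls (Igkj3 and Ighe higher, Igkv17-127 lower), where 4.45% of all transcript clusters were called. At 1 day there were 2 (Ighe higher, Igkv9-129 lower) against 3.4%, and at 7 days 5, of which only Ighv10-1 is among the 65, against 6.44%. Within sshRNA there was 1 call at 1 day, Igkj3, against 2.01%, and there were 10 at 7 days, 5 of them among the 65, against 16.3%. Within USFKD there was no call at 1 day by limma, with 7 of the 208 at an unadjusted p under 0.05, where 0% of all clusters were called, and there were 6 at 7 days, 3 of them among the 65, against 9.96%. The difference in response gave no call at 1 day, with 13 of the 208 at an unadjusted p under 0.05 and again 0% of all clusters called. At 7 days it gave 2 (Igkj3 and Ighv10-1), against 2.07%. In all, 9 of the 65 segments (13.8%) were called in at least 1 of the 9 comparisons, against 49.4% of the 15294 clusters above the threshold. By 18-array mean it was 5 of 17 segments above 6 (29.4%) against 56.9% of clusters, 4 of 34 between 5 and 6 (11.8%) against 25.8%, and 0 of 14 up to 5 against 32.8%.

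Since call shares depend on level, the 208 symbols were also set beside other clusters with 1 symbol and a similar 18-array mean. Of the 17 immunoglobulin symbols above 6, 3 were called between untreated lines (17.6%) against 16.4% of 11360 clusters, and 2 at 1 day (11.8%) against 12.7%. At 7 days it was 1 (5.88%) against 21.1%. From no IR to 7d IR, 2 of 17 were called in sshRNA (11.8%) against 37.8%, and 2 of 17 in USFKD (11.8%) against 24.4%. The difference in response at 7 days was called for 2 of 17 (11.8%), above the 6.8% of clusters. Between 5 and 6, none of 34 was called between lines at any time, against 5.22%, 5.01% and 6.18%, while 3 were called in sshRNA by 7 days (8.82%) against 18.1% and 1 in USFKD (2.94%) against 7.27%. Of the 157 symbols up to 5, 4 were called between lines at 7 days (2.55%) against 0.979%, 5 in sshRNA by 7 days (3.18%) against 3.71%, and 3 in USFKD (1.91%) against 0.985%. The shares at 7 days thus lay below those of other clusters in some of these bands and above them in others, and each rests on at most 5 called symbols. Over all 208 symbols the median change was between -0.05 and 0.06 in each comparison, and between -0.05 and 0.12 over all clusters with 1 symbol.

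**Figure D4:**
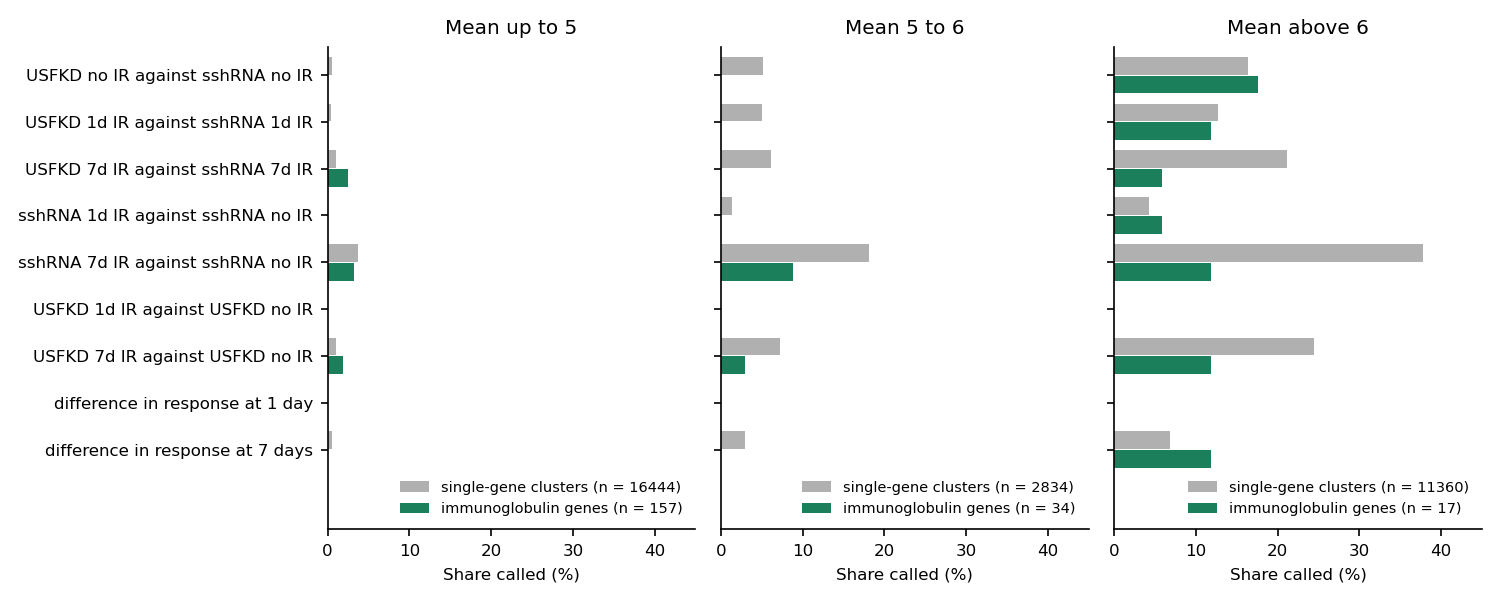
Bars show the percentage of immunoglobulin symbols (green) and of all clusters with 1 symbol (grey) called in each of the 9 comparisons, in 3 bands of the 18-array mean log2 value. A call needs an adjusted p under 0.05 and a fold over 1.5. In the highest band 3 of 17 immunoglobulin symbols (17.6%) and 16.4% of clusters were called between untreated lines, and 2 of 17 (11.8%) and 37.8% in sshRNA by 7 days.

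The pooled within-group SD had a median of 0.259 over the 65 segments and of 0.157 over the 15294 clusters above the threshold. Of the 143 immunoglobulin symbols below the threshold, 8 were called in at least 1 comparison (5.59%), against 3.07% of 15344 clusters with 1 symbol and no group mean above it. No values are given for those symbols, which lay at low signal.

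Calls were also counted in lists of genes that act with antibody chains. As a background, of the 15294 clusters above the threshold 8.83% were lower and 4.67% higher in untreated USFKD, 5.36% and 5.37% at 1 day, and 9.85% and 7.51% at 7 days. From no IR to 7d IR, 16.8% fell and 16.5% rose in sshRNA, and 9.36% fell and 10.6% rose in USFKD. Of 19 measured genes of antibody assembly and secretion, 9 were lower and 1 higher in untreated USFKD. The list median was -0.57 against -0.02 over the 15294 clusters. All 19 had an 18-array mean above 6, where 16.4% of clusters with 1 symbol were called in either direction. The lowest were Derl3 (-1.71 ± 0.16, adjusted p = 8.49e-06), Sdf2l1 (-1.59 ± 0.32, 0.00567) and Dnajb11 (-1.51 ± 0.20, 1.58e-04), which serve folding and disposal of proteins in the endoplasmic reticulum, and the higher gene was Fcrla (1.64 ± 0.22, 2.16e-04), an intracellular protein of B cells that binds immunoglobulin. At 1 day 6 were lower and 1 higher, and at 7 days 4 were lower and 3 higher. From no IR to 7d IR, 10 of the 19 fell in sshRNA and 9 in USFKD, and none rose in either line, on the arrays whose spikes stood apart. Hsp90b1, an endoplasmic reticulum chaperone, fell by 1.93 ± 0.17 in sshRNA (1.40e-06) and by 1.62 ± 0.17 in USFKD (2.12e-05). The J chain gene Jchain, whose product links IgM and IgA units, had group means from 13.7 to 14.4. The lower calls in untreated USFKD were not shared by all genes of the list. Untreated means in sshRNA and USFKD were 13.8 and 13.9 for Jchain, 11.5 and 11.8 for Xbp1, and 11.7 and 12.1 for Ell2. They were 7.62 and 7.44 for Prdm1. Mzb1, with 15.3 and 14.6, was among the genes called lower.

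Of 27 measured factors that bind immunoglobulin promoters and enhancers, a list that includes Usf1 and Usf2, 5 were lower and 2 higher in untreated USFKD. Usf2, a target of the hairpins, is counted among the lower genes here, at 1 day and at 7 days. Other lower genes in untreated USFKD were Ebf1, a factor of early B cell identity (-1.51 ± 0.11, adjusted p = 5.01e-07), Irf8 (-1.19 ± 0.15, 1.16e-04) and Pou2af1, the coactivator of octamer-binding proteins at V promoters (-0.999 ± 0.18, 0.00202). Irf4, a regulator of plasma cell differentiation, was higher by 0.89 ± 0.16 (0.00233). At 1 day 4 were lower and 1 higher, and at 7 days 4 were lower and 4 higher. By 7 days 10 of the 27 fell and 2 rose in sshRNA, against the 16.8% and 16.5% given above, and 4 fell and none rose in USFKD, against 9.36% and 10.6%. Usf2 was among those that rose in sshRNA (0.90 ± 0.16, adjusted p = 5.41e-04).

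Of 4 measured receptor signal chains and coreceptors, Cd79a, the partner of membrane immunoglobulin, was lower in USFKD at each time, with differences of -0.96 ± 0.22 (adjusted p = 0.0132), -1.19 ± 0.22 (0.00344) and -1.34 ± 0.22 (9.37e-04). Of 11 surrogate light chain and recombinase genes, 1 was lower and 1 higher in untreated USFKD. Vpreb3, a protein related to the surrogate light chain, was lower (-2.90 ± 0.22, 7.68e-07), and Prkdc, the kinase that acts in the joining of broken DNA ends, was higher (0.73 ± 0.12, 0.00147). Rag2, a subunit of the recombinase, stayed at group means of 4.09 to 4.31, below the dim limit. Of 9 genes of switch recombination and hypermutation, 1 was higher in untreated USFKD and none lower, namely Msh6, a mismatch repair protein (0.83 ± 0.09, 4.64e-05). Of 9 immunoglobulin receptor genes 1 was higher and 1 lower in each line comparison. Over these lists and the cell type marker lists together, 18 genes had no cluster of their own and were not analysed here.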

How the data were processed

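RNA from 18 cultures was hybridised to Affymetrix mouse transcriptome arrays. The deposited log2 values are intensities that the authors normalized by robust multi-array averaging (RMA) in Expression Console, for which no versions are given in the sources used here. The paper and the labels differ in the RNA amount per array. All 18 columns and 72688 rows (65956 transcript clusters and 6732 controls) were used as deposited.

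Symbols came from the platform annotation, and all 208 matched RefSeq (GRCm38.p6), which was used for names and gene order only, since the build behind the arrays is not given in the sources used here. Level filtering used group means over 3 arrays. The segments and gene lists were chosen with earlier results of these data known.

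A linear model with group means was run in R 4.3.3 using limma (version 3.58.1) and the data.table package (version 1.17.8), and summaries used Python 3.11.15 and pandas 2.3.3. It left 12 residual and 2.65 prior degrees of freedom, and tests were 2-sided. Benjamini-Hochberg adjustment ran over all rows within each of 9 comparisons. A call required an adjusted p under 0.05 and a fold over 1.5. Tested on simulated arrays for the comparison of untreated lines over 72688 rows, the model called 90% of genes lowered by 2 on the log2 scale, 72% of those lowered by 1, 80% of those raised by 1 and 98% of those raised by 2, with 9 false calls. Replicates are separate samples by their labels, and p-values measure only the spread between samples of 1 pair of lines. The number of arrays limits the precision.

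Segments were named by a rule: constant regions, the 4 highest of each other class, called segments without overlap, and those next to the threshold. From each gene list, called genes with large changes were named. Symbols sharing a cluster were not named. Same-numbered arrays of sshRNA no IR and 1d IR deviated together (r = 0.332, 0.168 and 0.173), which is a hint from the data, since no label pairs them. Alternatives were other level thresholds, a replicate block, leaving out each array, only the arrays compared, no moderation, a trend in the variance, control rows left out, a dim-probe filter, centring on bright clusters and cyclic loess.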

Additional observations from a re-analysis of the deposited data

Results flagged for a closer look

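Groups of 3 arrays were too small for a test of single outlying arrays. For 2 of the 65 segments the response to irradiation differed between lines at 7 days in a test of the difference itself, where 2.07% of all transcript clusters were called. For Igkj3, the step between no IR and 7d IR differed between USFKD and sshRNA by -2.98 ± 0.72 (SE, log2; limma, adjusted p = 0.0445), and all USFKD 7d IR arrays lay below the untreated ones while all sshRNA 7d IR arrays lay above theirs. That call was lost in 15 of the 18 fits that left out 1 array, and also with cyclic loess (adjusted p = 0.0508), the replicate block (0.0699) and no moderation (0.0743). For Ighv10-1, the difference in response was -1.20 ± 0.25 (adjusted p = 0.0223), with 3 of 3 sshRNA arrays raised and USFKD arrays overlapping. Both comparisons use the 7-day arrays, whose spikes stood apart.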

How the results depend on the processing

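The number of segments depends on the threshold: 108 of 208 symbols had a group mean above 4.5, 39 above 5.5 and 24 above 6, against 65 above 5. Counts of called symbols among the 208 moved by over 1.5 times as follows. Centring on bright clusters, which shifted arrays by -0.11 to 0.13 on the log2 scale, gave 11 in place of 6 for USFKD at 7 days against no IR. The filter on dim probes gave 3 there. No moderation gave 3 in place of 5 between lines at 7 days and 1 in place of 2 for the difference in response at 7 days. With only the arrays compared, the counts were 1, 1 and 1 between lines at no IR, 1 and 7 days, 2 in sshRNA at 1 day, 3 in USFKD at 7 days and 1 for the difference in response at 7 days. Correlations of deviations between same-numbered arrays ran from -0.42 to 0.33 and were over 0.1 in 12 of 45 pairs. Of the groups compared, all 3 pairs were over 0.1 only between sshRNA no IR and 1d IR. There the count was 1 with the block over all arrays and with a block in those arrays alone, a fit added after seeing the data, and Igkj3 had adjusted p = 0.0211 and 0.0383. Pairing in the other groups compared was left undecided. Between sshRNA 1d IR and USFKD 1d IR, for example, the correlations were 0.322, 0.289 and 0.005. The replicate block gave 3 between lines at 7 days and 1 for the difference in response at 7 days. Leaving out each array gave 0 to 3 between untreated lines, 1 to 2 at 1 day, 2 to 10 at 7 days, 0 to 1 in sshRNA at 1 day, 7 to 14 in sshRNA at 7 days, 4 to 9 in USFKD at 7 days, and 0 to 3 for the difference in response at 7 days. The count of 10 came without USFKD 7d IR replicate 1. The count between untreated lines was 0 without sshRNA no IR replicate 2 or 3. Calls of single segments were also lost as follows, by adjusted p. With only the arrays compared, Igkj3 between untreated lines had 0.0535, Ighe at 1 day 0.0664, Ighv5-12-4 in sshRNA at 7 days 0.0877, Igkv9-129 in USFKD at 7 days 0.0860 and the difference in response of Ighv10-1 0.0510. With cyclic loess, Igkv9-129 had 0.0766 in sshRNA and 0.101 in USFKD at 7 days, Ighv5-2 had 0.255 in sshRNA and the difference in response of Igkj3 0.0508. With no moderation the values were 0.0703 for Igkv17-127 between untreated lines, 0.0625 for Ighv5-2, 0.0531 for Igkv9-129 in USFKD and 0.0743 for the difference in response of Igkj3. With the replicate block, Igkv17-127 had 0.0508, Igkv9-129 in USFKD 0.0520 and the difference in response of Igkj3 0.0699. No call of a named segment changed its direction under any of these settings. The cause of these shifts was not tested. The mean of all clusters of a symbol was not run, because each symbol has 1 cluster. Signal limits the low segments: 78 of 208 symbols lay above the dim limit.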

Other observations

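Clusters that carry several immunoglobulin symbols name no gene, but 11 of 25 such clusters were above the threshold. One of the lambda locus, on chromosome 16, that joins C and J symbols had group means of 7.70, 8.21 and 9.04 in sshRNA at no IR, 1d IR and 7d IR, and 7.31, 7.50 and 8.37 in USFKD. It was lower in USFKD at 1 day (-0.71 ± 0.19, limma, adjusted p = 0.0470) and 7 days (-0.67 ± 0.19, 0.0364) and rose by 7 days in sshRNA (1.34 ± 0.19, 1.10e-04) and in USFKD (1.07 ± 0.19, 0.00149). Another 2 clusters of the kappa locus, on chromosome 6, had group means of 12.1 to 13.1 and 13.5 to 14.5 and were called in no comparison. The chromosome 6 cluster that joins C and J symbols had group means from 4.82 to 5.11 and was also called in no comparison. On chromosome 12, the heavy chain cluster that joins C and J symbols was above the threshold. Its group means at no IR, 1d IR and 7d IR were 6.67, 6.60 and 6.65 in sshRNA and 6.14, 6.23 and 6.14 in USFKD. Only its levels are given here.

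The pattern of Igkj3 over the 18 arrays was compared with that of 15293 other clusters with 1 symbol above the threshold, after its values were seen. By Pearson's r, given as a description, the most similar were Ovgp1 (0.970), Mapk8ip3 (0.962), Zgrf1 (0.947) and Msh5 (0.947). Zgrf1, for example, had group means of 7.78, 8.91 and 7.72 in sshRNA at no IR, 1d IR and 7d IR, and 8.46, 8.84 and 7.55 in USFKD.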
